A study of Mus musculus with 6 samples.

Results

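Mitochondrial ribosomal protein genes were followed in the sciatic nerve of mice at postnatal day 14. They were taken as all protein-coding genes whose symbol is Mrpl or Mrps with a number, matched by Ensembl gene ID, which gave 78 of the 55335 genes in the table, 49 Mrpl and 29 Mrps genes. The control nerves (n = 3) came from RhoAfl/fl mice, homozygous for a floxed allele of the small GTPase gene RhoA. The icKO nerves (n = 3) came from RhoAfl/fl ChATCreERT2+ mice, which carry the same floxed alleles plus a CreERT2 transgene under the ChAT gene, a driver active in cholinergic cells, motoneurons among them. Motoneurons send only their axons into the nerve, so a lysate of the nerve holds mainly RNA of other cells, and Chat itself was at 0.0123 FPKM in 1 control library and listed at 0 in the others. The labels do not state the induction schedule, the sex or litter of the mice, whether control mice received the inducing drug, or whether each library is a separate animal. All p-values therefore measure the spread between these samples, which may in part be technical. The comparison asks whether the 78 genes shift as genes of cytosolic translation do.

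The mitochondrial ribosome, or mitoribosome, sits in the mitochondrial matrix and translates the few messages that the mitochondrial genome encodes, all of them core subunits of the respiratory chain and the ATP synthase. Its RNAs are made in the mitochondrion, while its proteins are encoded in the nucleus, made by cytosolic ribosomes and imported. Part of these proteins have counterparts in the bacterial ribosome and the rest were added during the evolution of mitochondria. The large subunit joins amino acids, and the small subunit reads the message. A few names do not match the place of the protein: Mrps18a and Mrps30 encode proteins of the large subunit, and the Mrps36 protein is now assigned to the oxoglutarate dehydrogenase complex.

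Values are FPKM, fragment counts scaled to transcript length and library size, from polyadenylated RNA. The depth, estimated from the smallest steps of the values, was 17200000 to 20700000 fragments per library. Tests were made with limma on log2(FPKM + 1) over the 12860 genes whose mean reached 1 FPKM, and a gene was called higher or lower in icKO nerves at a Benjamini-Hochberg adjusted p under 0.05. The labelled tissue held Schwann cell markers, with S100b at 78.4 FPKM or more in every library. Rhoa, the targeted gene, was at 36.5, 39 and 38 FPKM in the controls against 36.4, 33.6 and 33.2 FPKM in icKO nerves (limma, adjusted p = 0.195). Control replicate 2 held 46.1 FPKM of Xist, of which no other library held over 0.0282 FPKM, and Ddx3y, on the Y chromosome, was listed at 0 in that library alone, so it came from a female and the rest from males. Skeletal muscle transcripts varied widely, with 18 markers summing to 1390, 294 and 388 FPKM in the controls and 31.8, 46.1 and 1680 FPKM in icKO libraries. In bulk tissue, fewer cells of a type and less RNA per cell cannot be told apart.

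Few mitochondrial ribosomal protein genes were higher in icKO nerves, whereas most cytosolic ones were. All 78 passed the filter, and 4 of them (5.13%) were higher and 16 (20.5%) lower in icKO nerves, while 58 did not pass. Of all tested genes, 42.9% were called, 20.8% higher and 22.1% lower, so the share of lower members was near the background and the share of higher members was below it. The median difference of the members was -0.04 on the log2(FPKM + 1) scale, beside -0.01 over all tested genes, with quartiles of -0.30 and 0.12 for the members and -0.33 and 0.30 for all genes. Only Mrps15 reached a change of 1 on this scale, and 11 members (14.1%) reached 0.5, against 30.2% of all tested genes. In 46 members (59%) the 95% interval of the difference lay within 0.5 of 0, which held for 35.8% of all tested genes. Without any single library 2 to 5 members were higher and 12 to 16 lower, the 2 without control replicate 3, and without both muscle-rich libraries (control replicate 1 and icKO replicate 3) the counts were 4 and 17. After a correction of each library for transcript length and GC content 11 were higher and 14 lower, against 22.3% and 21.4% of all tested genes. Without a single library the shares over all tested genes were 14.5% to 19.7% higher and 14.6% to 22.9% lower. Without both muscle-rich libraries these shares were 16.6% and 21.2%.

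**Figure D1:**
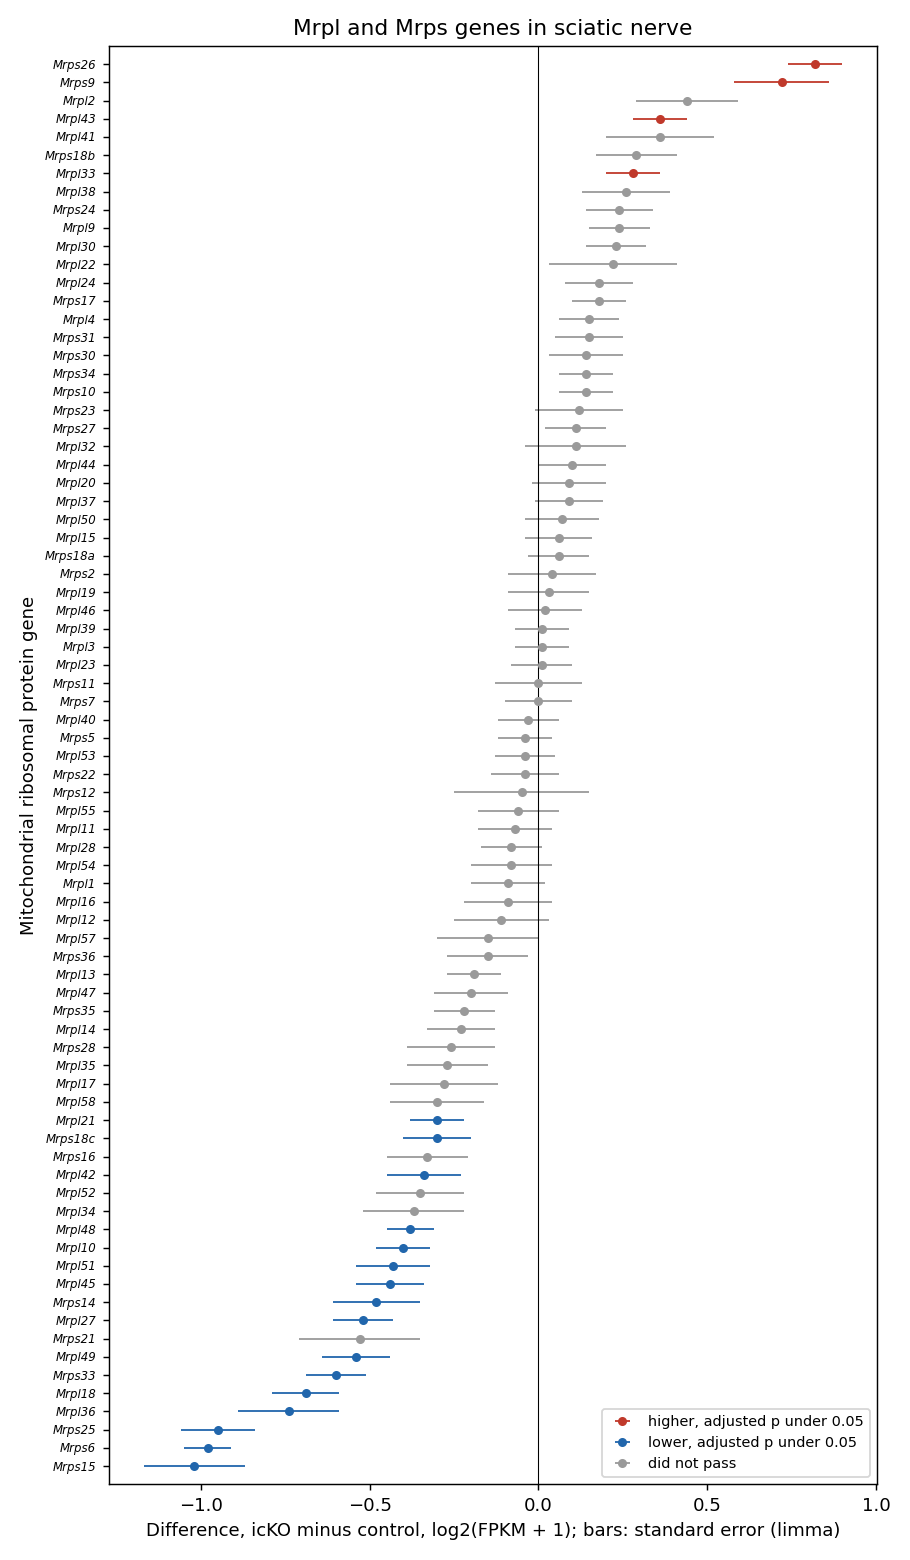
Difference between icKO and control nerves for each of the 78 mitochondrial ribosomal protein genes (x axis, log2(FPKM + 1) scale; bars, standard error from limma; y axis, genes ordered by the difference). The 16 genes that passed as lower reach down to -1.02 (Mrps15) and the 4 that passed as higher reach up to 0.82 (Mrps26), with 58 grey genes between or among them.

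The members were genes of low to moderate level. Mean levels over the 6 libraries ran from 1.17 FPKM in Mrps35 to 25.1 FPKM in Mrpl43, a 21.5-fold range with a median of 6.54 FPKM. After Mrpl43 came Mrps12 at 23.8, Mrps6 at 22.2 and Mrpl10 at 18.4 FPKM, each a mean over libraries of both groups. In its lowest library a member rested on an estimated 29 to 534 fragments, with a median of 121.5, so counting error is largest in short and weakly expressed members. The calls lay among the 42 members with means of 3 to 10 FPKM, 3 higher and 10 lower, and the 24 members above that, 1 higher and 6 lower. The 12 members under 3 FPKM gave no call with limma, and Mrpl13 and Mrps35 had unadjusted p-values under 0.05 (0.0438 and 0.043). At that level 14.8% of all tested genes were higher and 22.1% lower. At 3 to 10 FPKM 22.2% of all tested genes were higher and 19.6% lower, beside 7.14% and 23.8% of the members. At 10 to 30 FPKM these shares were 24% and 24.1%, beside 4.17% and 25% of the members.

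The 3 largest falls were in small-subunit genes, and in each of the 8 largest the groups did not overlap. Over all members 36 (46.2%) had groups that did not overlap, 14 higher and 22 lower, where 57.2% of all tested genes did. Mrps15, the counterpart of bacterial protein S15, was at 12.6, 11.6 and 11.8 FPKM in the controls and 6.44, 4.10 and 5.94 FPKM in icKO libraries. Every icKO library was below every control, at 0.458 times the control mean, a log2 difference of -1.02 (SE 0.15, limma, adjusted p = 0.00275). Mrps6, the counterpart of bacterial S6 and the member with the smallest p, was at 30.6, 29.6 and 29.2 FPKM in the controls and 14.8, 14.6 and 14.6 FPKM in icKO libraries. The spread within each group was small beside the difference of -0.98 (SE 0.07, limma, adjusted p = 0.000427). In the annotation Mrps6 shares 159 exon bases, 10.4% of its own, with Slc5a3 on the same strand, and Slc5a3 fell too, from 7.21, 7.92 and 8.11 to 3.49, 4.58 and 2.43 FPKM. Fragments of the shared bases could be counted for either gene. Mrps25, a protein of the small subunit without a bacterial counterpart, was at 10.3, 9.48 and 9.54 FPKM in the controls and 5.18, 4.85 and 3.83 FPKM in icKO libraries, a difference of -0.95 (SE 0.11, limma, adjusted p = 0.00135). It overlaps Nr2c2 on the other strand over 69.8% of its exon bases, and Nr2c2 moved the other way, with a difference of 0.78.

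The promoters of the genes with the largest fall and the largest rise are shown because both lie within 1 gene family and moved in opposite directions. Each is the 250 bases before the RefSeq start (GRCm38.p6, chr4:126046678-126046927 for Mrps15 and chr2:130563507-130563756 for Mrps26, both on the plus strand, 5′ to 3′). Capitals mark matches to the motifs searched.
Mrps15: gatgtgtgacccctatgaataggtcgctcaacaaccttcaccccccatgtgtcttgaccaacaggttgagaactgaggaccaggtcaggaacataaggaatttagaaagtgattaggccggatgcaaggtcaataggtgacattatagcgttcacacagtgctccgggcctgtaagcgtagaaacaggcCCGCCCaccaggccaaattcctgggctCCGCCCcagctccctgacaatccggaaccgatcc
Mrps26: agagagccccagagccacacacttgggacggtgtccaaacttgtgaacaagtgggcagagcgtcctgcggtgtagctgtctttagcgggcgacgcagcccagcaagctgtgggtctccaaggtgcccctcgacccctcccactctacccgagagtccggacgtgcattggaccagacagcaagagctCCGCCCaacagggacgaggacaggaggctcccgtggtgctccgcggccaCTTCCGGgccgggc
Both hold the GC box GGGCGG, read on the reverse strand, with 2 matches in Mrps15 and 1 in Mrps26. The Mrps26 promoter also holds CCGGAAG on the reverse strand, the motif of ETS factors such as GABP, and the Mrps15 promoter does not. The other 3 motifs searched (Nrf1, E-box and Yy1, spelled out with the motif counts) had no match in either window.

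The remaining large falls were spread over both subunits. Mrpl36, the counterpart of bacterial L36, was at 19.0, 19.2 and 20.2 FPKM in the controls and 12.8, 8.71 and 12.8 FPKM in icKO libraries (log2 difference -0.74, SE 0.15, limma, adjusted p = 0.00831), with icKO replicate 2 the lowest. Mrpl18, a protein of the central protuberance of the large subunit, was at 15.8, 15.6 and 17.9 FPKM in the controls and 9.47, 8.98 and 11.1 FPKM in icKO libraries (-0.69, adjusted p = 0.0031). All icKO libraries were below all controls in both genes. Mrps33 was at 11.5, 10.6 and 10.0 FPKM in the controls and 7.38, 6.53 and 6.28 FPKM in icKO libraries (-0.60, limma, adjusted p = 0.00312). The pseudogene Gm5776, a processed copy of Mrps33, was listed at 11.8, 9.73 and 11 and at 7.19, 5.19 and 6.72 FPKM, so both can share fragments and the level of each is uncertain. Mrpl27, the counterpart of bacterial L27 near the peptidyl transferase centre, was at 20.0, 16.2 and 19.1 FPKM in the controls and 12.4, 12.7 and 12.6 FPKM in icKO libraries (-0.52, limma, adjusted p = 0.00614). Mrpl49 is given with its neighbour Fau.

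The other 8 falls were smaller, from -0.48 to -0.30 on the log2(FPKM + 1) scale. They were Mrps14, Mrpl45, Mrpl51, Mrpl10, Mrpl48, Mrpl42, Mrps18c and Mrpl21. Mrpl45, which lies by the tunnel exit at the inner membrane, was at 6.12, 5.56 and 6.42 FPKM in the controls and 4.52, 3.68 and 4.34 FPKM in icKO libraries (limma, adjusted p = 0.0114). Mrpl48 was at 3.67, 3.53 and 3.49 against 2.52, 2.52 and 2.47 FPKM (adjusted p = 0.00717), and a processed pseudogene of it, Mrpl48-ps, was listed at 0.354 to 2.19 FPKM. Over 6 fits that each left out 1 library, Mrpl42 passed only without icKO replicate 1, Mrps18c only without control replicate 2, and Mrpl21 only without control replicate 1 or icKO replicate 3. Mrps14 did not pass without control replicate 2, control replicate 3 or icKO replicate 2, nor Mrpl51 without control replicate 1 or without both muscle-rich libraries (limma, highest adjusted p of these 5 genes over all alternatives 0.0772 to 0.147). Of the 16 falls, 11 passed in every alternative in which the gene was tested.

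The test called 4 members higher. Mrps26, a small-subunit protein added in mitochondria, was at 3.95, 3.88 and 3.95 FPKM in the controls and 8, 7.20 and 7.95 FPKM in icKO libraries. The level was 1.96-fold higher with narrow groups, a log2 difference of 0.82 (SE 0.08, limma, adjusted p = 0.000752). Mrps9, the counterpart of bacterial S9, was at 2.69, 2.60 and 2.78 FPKM in the controls and 4.34, 6.51 and 4.57 FPKM in icKO libraries (0.72, SE 0.14, adjusted p = 0.0074), with icKO replicate 2 the highest. Mrpl43, with the highest mean over both groups but a control mean below those of Mrps6 and Mrps12, was at 22.2, 22.4 and 21 FPKM in the controls and 27.2, 27.7 and 30.1 FPKM in icKO libraries (0.36, SE 0.08, adjusted p = 0.0109). It overlaps the mitochondrial helicase gene Twnk on the other strand over 33.4% of its exon bases, and Twnk was higher by 0.49. Without control replicate 3 the adjusted p of Mrpl43 was 0.0512. Mrpl33 was at 4.42, 4.54 and 4.48 FPKM in the controls and 6.11, 5.67 and 5.22 FPKM in icKO libraries (0.28, adjusted p = 0.0299), and of the 6 fits without 1 library it passed only in that without icKO replicate 3 (highest adjusted p over all alternatives 0.0933). Mrps26 and Mrps9 passed in every alternative in which they were tested.

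**Figure D2:**
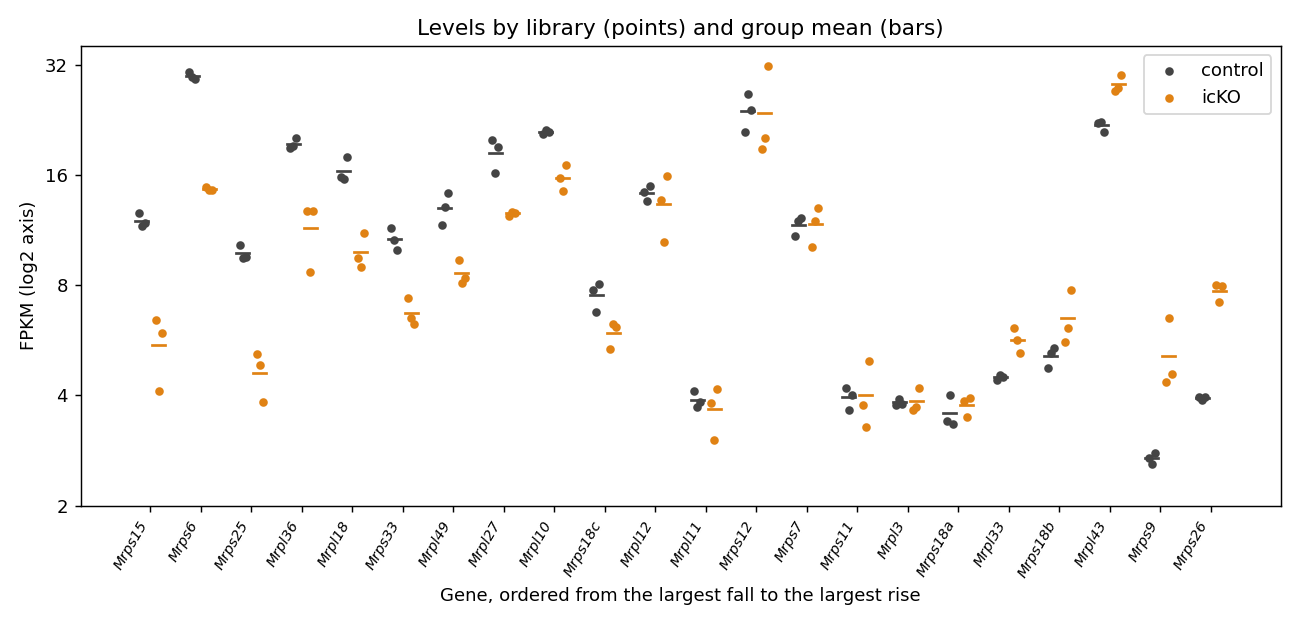
FPKM of 22 mitochondrial ribosomal protein genes (y axis, log2-spaced) in each library (points) with the group mean (bar), ordered from the largest fall to the largest rise. The 3 icKO libraries of Mrps6 sit at 14.6 to 14.8 FPKM below controls at 29.2 to 30.6 FPKM, and those of Mrps26 at 7.20 to 8 FPKM above controls at 3.88 to 3.95 FPKM.

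Among members that work side by side, some passed and others did not. In the stalk of the large subunit, where translation factors bind, Mrpl10 was at 20.7, 21.3 and 21 FPKM in the controls and 15.7, 14.5 and 17 FPKM in icKO libraries, a fall of -0.40 (SE 0.08, limma, adjusted p = 0.00927). Mrpl12, which is carried by Mrpl10, was at 14.4, 13.6 and 14.9 FPKM against 13.7, 10.5 and 15.9 FPKM, and Mrpl11 at the stalk base at 4.11, 3.71 and 3.83 against 3.82, 3.02 and 4.17 FPKM. Both overlapped between groups, with 95% intervals of the log2 difference of -0.45 to 0.24 and -0.34 to 0.19. Of the 3 Mrps18 paralogs, Mrps18c is counted below with a bacterial counterpart, and Mrps18a and Mrps18b as additions. Mrps18c was at 7.78, 6.77 and 8.07 FPKM in the controls and 5.34, 6.28 and 6.14 FPKM in icKO libraries (-0.30, limma, adjusted p = 0.0439). Mrps18b was at 4.74, 5.22 and 5.38 against 5.61, 6.13 and 7.76 FPKM, without overlap (0.29, adjusted p = 0.0984), and Mrps18a at 3.41, 4.01 and 3.34 against 3.85, 3.50 and 3.94 FPKM (0.06, adjusted p = 0.646). Differences between paralogs were not tested.

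The flattest members were Mrps7, Mrps11 and Mrpl3, all with bacterial counterparts. Mrps7 was at 10.9, 12 and 12.2 FPKM in the controls and 10.2, 12 and 13 FPKM in icKO libraries, with a 95% interval of -0.25 to 0.25 for the log2 difference. Mrps11 was at 4.20, 3.66 and 4.01 against 3.77, 3.27 and 4.98 FPKM (-0.32 to 0.32), and Mrpl3 at 3.77, 3.92 and 3.79 against 3.65, 3.71 and 4.19 FPKM (-0.19 to 0.20). Mrps12, a protein of the decoding centre, was widely spread, at 21, 26.7 and 24.1 FPKM in the controls and 18.9, 20.2 and 31.8 FPKM in icKO libraries, where icKO replicate 3 was the highest of all. Among members that did not pass, differences ran from -0.53 (Mrps21) to 0.44 (Mrpl2), and 10 of them were higher and 6 lower without overlap of the groups. The shares of all tested genes without overlap, called genes included, were 28.4% higher and 28.9% lower. At an unadjusted p under 0.05 limma gave 8 higher and 22 lower of the 78 members, against 3237 and 3427 of 12860 tested genes.

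The calls were spread over both subunits and both origins. Of 30 large-subunit genes with a bacterial counterpart 1 was higher and 5 lower (median log2 difference -0.08), and of 21 large-subunit additions 1 was higher and 5 lower (-0.03). Of 16 small-subunit genes with a bacterial counterpart 1 was higher and 4 lower (-0.04), and of 10 small-subunit additions 1 was higher and 2 lower (0.11). In this order the lower shares were 16.7%, 23.8%, 25% and 20%, near the 22.1% of all tested genes. The higher shares were 3.33%, 4.76%, 6.25% and 10%, against 20.8% of all tested genes. Mrps36, outside the ribosome, was at 6.04, 4.83 and 6.38 against 5.47, 4.52 and 5.18 FPKM and did not pass (limma, adjusted p = 0.328). Across the 78 members the difference had a Spearman correlation of -0.08 with mean level, 0.04 with transcript length and 0.10 with GC content, values that share the same libraries.

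Cytosolic ribosomal protein genes, read from the same fit, were mostly higher. Of 79 tested 63 (79.7%) were higher and 16 did not pass limma's test, at a median log2 difference of 0.50. Rpl36, with the smallest p, went from 132, 114 and 124 to 240, 261 and 240 FPKM (limma, adjusted p = 0.000752). Under all 19 alternatives their median lay between 0.44 and 0.58, and that of the mitochondrial genes between -0.12 and 0.02. Summed over the cytosolic list, levels were 5600, 5350 and 5740 FPKM in the controls and 8210, 8570 and 7430 FPKM in icKO libraries. Summed over the 78 mitochondrial genes they were 633, 647 and 662 FPKM in the controls and 590, 551 and 631 FPKM in icKO libraries. The cytosolic sum was thus higher in all 3 icKO libraries and the mitochondrial sum lower in all 3, the latter by a margin of 2 FPKM between icKO replicate 3 and control replicate 1. The 2 libraries at that margin were those with the most muscle transcripts, and icKO replicate 3 held the highest value of the 6 libraries for 28 members and icKO replicate 2 the lowest for 30. The part of muscle in these sums was not tested. Cytosolic initiation and elongation factors, without Y-linked Eif2s3y, had 14 higher and 5 lower of 52 tested, at a median of 0.16. These were 26.9% and 9.62%, against 20.8% and 22.1% of all tested genes. Without control replicate 3 they had 8 higher and 3 lower, where 14.5% and 14.6% of all tested genes were. Without control replicate 2 they had 10 higher and 2 lower, where 15.4% and 15% of all tested genes were. Eif3f, an initiation factor subunit, rose from 34.9, 34 and 33.7 to 69.9, 84.4 and 63 FPKM, and the elongation factor gene Eef1g fell from 59.5, 62.1 and 64.6 to 40.4, 39.8 and 47.3 FPKM (limma, adjusted p = 0.00119 and 0.00513). These lists were also chosen with results of these data known, so their direction is a description.

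**Figure D3:**
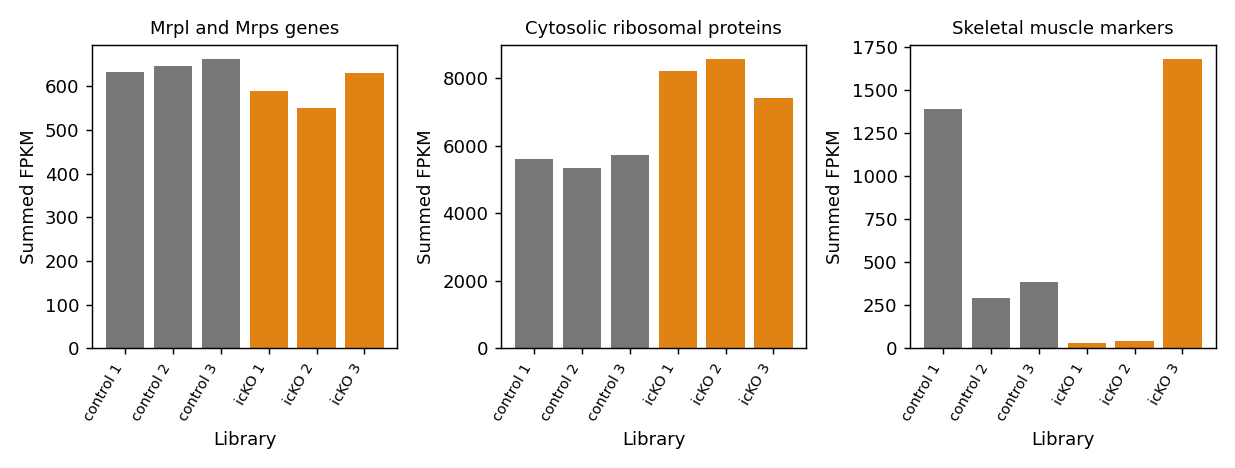
Summed FPKM (y axes from 0) of the 78 mitochondrial ribosomal protein genes, of cytosolic ribosomal protein genes and of 18 skeletal muscle markers in each library (control grey, icKO orange). The mitochondrial sums run from 551 to 662 FPKM, the cytosolic sums of the icKO libraries all exceed those of the controls, and muscle markers peak in control replicate 1 and icKO replicate 3.

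Other parts of the mitochondrial translation apparatus moved in both directions. Of 14 tested mitochondrial translation factors 2 (14.3%, against 20.8% of all tested genes) were higher and 6 (42.9%, against 22.1%) lower, at a median of -0.24. The lower calls numbered 3 without control replicate 2 or control replicate 3 and 4 without icKO replicate 2 or icKO replicate 3, and 3 with a replicate block. The higher calls numbered 1 without any single library other than icKO replicate 3. Over all tested genes the fits without 1 library called 14.5% to 19.7% higher and 14.6% to 22.9% lower, and that with the block 17.7% and 18.1%. Slirp, a partner of the mitochondrial RNA-binding protein Lrpprc, fell from 2.92, 2.49 and 2.28 to 1.05, 0.888 and 1.18 FPKM (limma, adjusted p = 0.00223). The elongation factor gene Tufm fell from 11.8, 12.7 and 13.4 to 8.03, 5.84 and 7.69 FPKM (adjusted p = 0.00425), while Mtfmt, the enzyme that formylates the initiator tRNA, rose from 2.41, 2.35 and 2.58 to 4.09, 4.55 and 4.86 FPKM (adjusted p = 0.00188). Of 15 tested mitochondrial aminoacyl-tRNA synthetases, which charge tRNAs, 3 were higher (Iars2, Rars2 and Sars2) and 1 lower, at a median of 0.10. These were 20% and 6.67%, against 20.8% and 22.1% of all tested genes. Of 25 tested genes of mitoribosome assembly and rRNA modification 8 (32%) were higher and 3 (12%) lower, at a median of 0.08. Without control replicate 2, 4 of the 25 were higher and 2 lower, where 15.4% and 15% of all tested genes were. Among the 25, Rbfa, which helps mature the small subunit, rose from 10.6, 10.6 and 10.7 to 16.7, 14.9 and 16.5 FPKM (limma, adjusted p = 0.00238). The GTPase gene Mtg2 fell from 2.46, 2.80 and 2.47 to 1.63, 1.31 and 1.24 FPKM (limma, adjusted p = 0.00505).

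In a list of 6 genes, for mitoribosome proteins with other names and the insertase Oxa1l, 1 was lower and only Oxa1l was higher. Chchd1, a small-subunit protein, fell by 0.37 on the log2(FPKM + 1) scale (limma, adjusted p = 0.019), a call lost without control replicate 3. Oxa1l, which encodes the insertase that receives new chains at the inner membrane, rose from 10.4, 9.64 and 9.49 to 15.5, 19.7 and 14.4 FPKM (adjusted p = 0.00552). Of 16 tested genes of mitochondrial transcription and its nuclear regulators 3 were higher, with Tfam, the packaging factor of mitochondrial DNA, at 0.43, and 1 was lower, Mterf1b at -0.56. These were 18.8% higher and 6.25% lower, against 20.8% and 22.1% of all tested genes. Without control replicate 3 the higher calls of this list numbered 1, where 14.5% of all tested genes were higher. Gabpa and Nrf1, regulators of many nuclear genes for mitochondrial proteins, had differences of 0.05 and 0.11 that did not pass (limma, adjusted p = 0.638 and 0.533).

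Among respiratory chain genes, whose core subunits the mitoribosome makes, the share of lower calls was close to that of all tested genes. The share of higher calls was below that of all tested genes, and most differences were negative. Of 81 tested nuclear-encoded subunits 4 (4.94%, against 20.8% of all tested genes) were higher and 21 (25.9%, against 22.1%) lower, at a median of -0.20. Of the 81, 65 differences were negative and 16 positive, against 6557 and 6303 of the 12860 tested genes. Without overlap of the groups 36 were lower and 5 higher, where 28.9% and 28.4% of all tested genes were. The lower calls numbered 11 without control replicate 3, 15 without control replicate 2 and 35 without icKO replicate 3, a muscle-rich library. Over all tested genes 14.6%, 15% and 22.9% were lower in these fits. The higher calls among the 81 numbered 1 without control replicate 2, 3 without icKO replicate 3 and 2 without any of the other 4 libraries. Atp5s, named for an ATP synthase coupling factor, fell from 4.87, 3.87 and 4.06 to 1.79, 1.33 and 1.43 FPKM, and the complex I gene Ndufv2 rose from 29.4, 29.6 and 27.2 to 40.6, 34.6 and 42.8 FPKM (limma, adjusted p = 0.00111 and 0.0141). Of the 13 subunits encoded in mitochondrial DNA 1 was higher, mt-Nd6 by 0.59, and 3 were lower, mt-Nd2, mt-Nd3 and mt-Nd4, by -0.45, -0.47 and -0.34, at a median of -0.09. These calls were fewer in most fits that left out 1 library. With 1 library left out, the higher call held only without icKO replicate 2. Only 1 lower call was left without control replicate 1, control replicate 3, icKO replicate 2 or icKO replicate 3. At an unadjusted p under 0.05, limma gave 1 higher and 4 lower with all libraries. Without 1 library these counts were 0 or 1 and 3 to 5. Without both muscle-rich libraries limma called none of the 13, with 3 lower at an unadjusted p under 0.05.

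**Figure D4:**
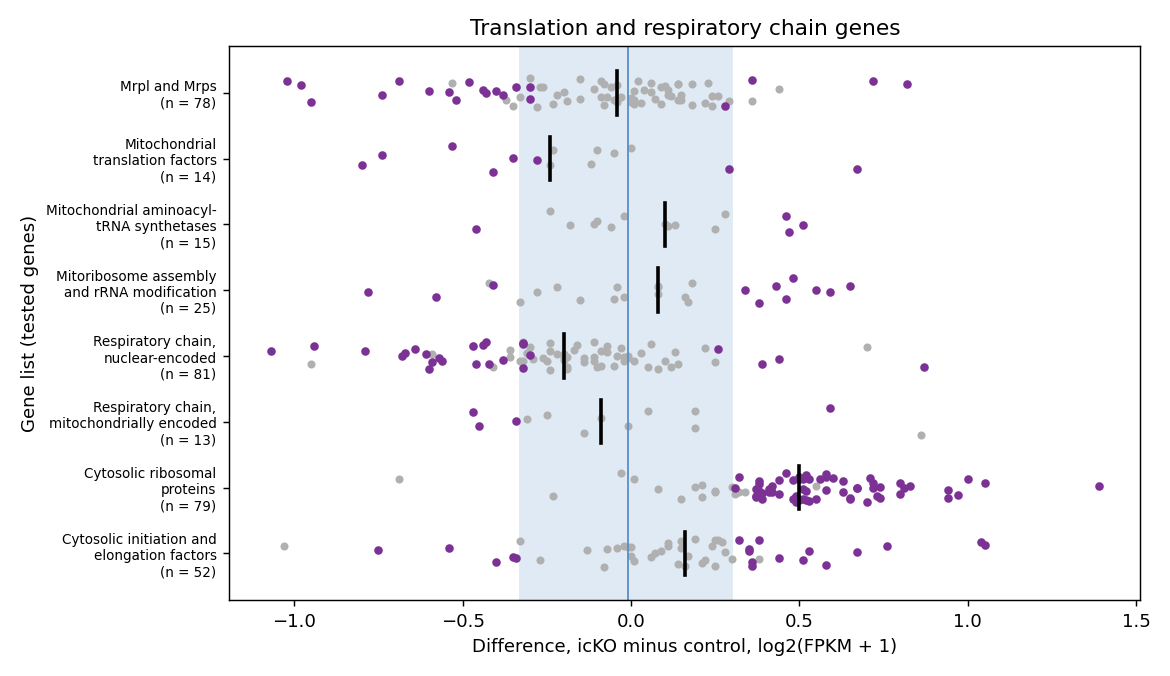
Difference between icKO and control nerves (x axis, log2(FPKM + 1) scale) for each tested gene of 8 lists (points, purple where the adjusted p was under 0.05), with the list median as a black bar and the median and quartiles of all tested genes as a blue line and band. The bar of the cytosolic ribosomal proteins lies at 0.50, while that of the Mrpl and Mrps genes lies at -0.04, inside the band.

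Markers of other cell types differed between the groups as well. All 9 tested adipocyte markers fell, summing to 572, 585 and 481 FPKM in the controls and 130, 108 and 179 FPKM in icKO libraries, with the brown fat gene Ucp1 at 0.0935 FPKM or less. Of 15 tested skeletal muscle markers 1 was lower, at a median of -2.18, but without icKO replicate 3 it was 12 of 13 tested, at a median of -4.08, and without both muscle-rich libraries 12 of 13, at -3.38. Myh3 was listed at 0 in 5 libraries. Of 8 fibroblast markers 1 was higher and 4 lower, with 2 lower without control replicate 2, control replicate 3, icKO replicate 1 or icKO replicate 2, 3 without icKO replicate 3 and 6 without control replicate 1, and sums of 942 to 1730 FPKM in the controls and 781 to 788 FPKM in icKO libraries. Schwann cell markers summed to 28300 to 30400 and 30000 to 34400 FPKM, with 2 higher and 2 lower of 10. Their differences had a median of 0.07 and ran from -1.86 to 0.90. The largest fall among the 10 was that of S100b, from 317, 297 and 356 to 95.2, 90.7 and 78.4 FPKM. The part of these cell types in the member differences was not tested, apart from the fits for muscle. The first left out the muscle-rich libraries. The other held, as a covariate, the mean log2(FPKM + 1) of the tested muscle markers in each library. It gave 5 higher and 12 lower members, against 18.7% and 19% of all tested genes.

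Many members share their start region with another gene. In the annotation 18 of the 78 (23.1%) lie head to head with a protein-coding gene on the opposite strand, with starts within 1000 bases, against 10.2% of 11387 tested protein-coding genes. Of 14 such partners that were tested 4 were higher, 2 lower and 8 did not pass, and over these 14 pairs the Spearman correlation of the 2 differences was -0.05. Mrpl49, a large-subunit addition, lies head to head with Fau, which encodes a fusion protein whose ribosomal part joins the small subunit of the cytosolic ribosome. Mrpl49 was at 11.7, 13.1 and 14.3 FPKM in the controls and 9.37, 8.13 and 8.35 FPKM in icKO libraries, a fall of -0.54 (SE 0.10, limma, adjusted p = 0.00601). Fau was at 86.7, 86.1 and 91.6 FPKM in the controls and 169, 173 and 151 FPKM in icKO libraries, a rise of 0.89 (adjusted p = 0.00082). In both genes no control library overlapped an icKO library. The 191 bases between their RefSeq starts (59 in the GENCODE annotation) are shown because the genes on either side were called in opposite directions (GRCm38.p6, chr19:6057756-6057946, minus strand, 5′ to 3′ towards Mrpl49), with motif matches in capitals.
Mrpl49 to Fau: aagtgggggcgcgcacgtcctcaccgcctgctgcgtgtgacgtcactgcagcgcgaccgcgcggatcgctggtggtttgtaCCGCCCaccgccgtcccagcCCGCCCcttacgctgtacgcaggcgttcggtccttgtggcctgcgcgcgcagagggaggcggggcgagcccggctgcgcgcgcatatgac
The stretch begins on the Fau side and ends just before the Mrpl49 start, and its label names the pair and not the direction. Both matches are GC boxes on the reverse strand, and none of the other 4 motifs was found between the starts.

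In other pairs the partner passed alone. Mrps12 lies head to head with Sars2, the mitochondrial seryl-tRNA synthetase gene, which rose from 4.93, 4.46 and 5.12 to 7.46, 6.60 and 7.18 FPKM (limma, adjusted p = 0.0057), while Mrps12 did not pass. Mrpl40 had a difference of -0.03 beside 0.66 for Hira, a histone chaperone gene, and Mrps18b 0.29 beside -0.41 for Ppp1r10. Mrpl41 stood at 0.36 beside 1.66 for Pnpla7, a lysophospholipase gene. In the pair Mrpl51 and Ncapd2 both fell, by -0.43 and -0.28. Mrpl46 and Mrps11 overlap each other on opposite strands, and both were flat, at 0.02 and 0.00. Differences within pairs were not tested. Over all exons 23 members share bases with another protein-coding gene, 4 of them on the same strand, and the handling of strand is not given in the sources used here.

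**Figure D5:**
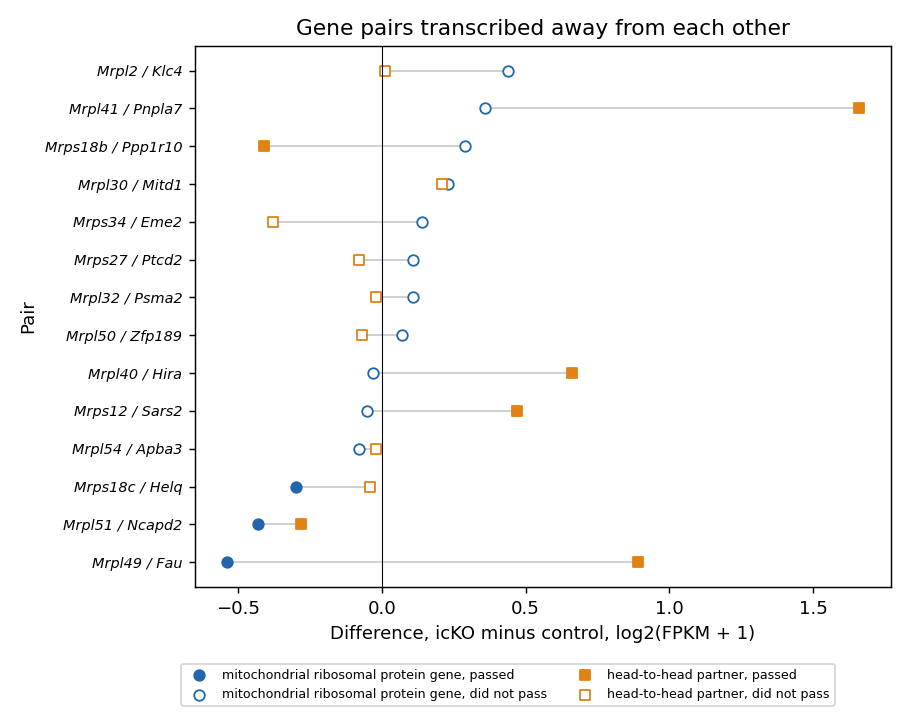
Difference between icKO and control nerves (x axis, log2(FPKM + 1) scale) for 14 mitochondrial ribosomal protein genes (blue circles) and their head-to-head partners (orange squares); filled symbols passed an adjusted p of 0.05. Mrpl49 and Fau, at the bottom, lie on opposite sides of 0, at -0.54 and 0.89.

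Promoter motifs were counted in the 69 members that have an entry in the RefSeq promoter table, 300 bases from 250 before to 50 after the start, on both strands. The ETS motif CCGGAAG was in 26 members (37.7%), against 20.5% of the promoters of 9220 tested genes and 9.93% of all 27025. The members with it had a median difference of -0.22, with 3 higher and 7 lower, and the 43 without it a median of 0.00, with 1 higher and 9 lower. Of all tested genes 20.8% were higher and 22.1% lower, and their calls were not split by motif. The difference between these medians of members was not tested. ATGGCGG, a motif of Yy1, was in 13 members (18.8%, against 9.71% of tested genes), with 1 call, a fall, and CATGCGC, part of the Nrf1 motif, in 8 (11.6%, against 8.02%), 1 higher and 1 lower. The GC box GGGCGG was in 34 members (49.3%, against 69.9%), 3 higher and 10 lower, and the E-box CACGTG in 5 (7.25%, against 11.7%), 2 of them lower. A match describes the letters of this window and shows no binding.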

How the data were processed

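Polyadenylated RNA of 6 sciatic nerve libraries (3 control, 3 icKO) was measured. The authors deposited FPKM values for 55335 genes. The submitters' processing notes name build GRCm39, StringTie 1.3.1c and STAR, besides DESeq2 1.16.1 and FastQC 0.11.2, without saying what each did. The annotation release, strand handling and multi-mapped reads were not given in the sources used here. Each library's total is shared in FPKM, so abundant transcripts lower the values of others. Symbols, lengths and overlaps came from GENCODE M21 (GRCm38), matched by ID for 55154 genes. Promoter sequences came from RefSeq (GRCm38.p6).

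Limma 3.58.1 in R 4.3.3 (variance trend, no covariate, tested on simulated data) was run on log2(FPKM + 1), a scale that understates changes of low genes, over the 12860 genes whose mean reached 1 FPKM. The members and lists were chosen with earlier results of these data known. Named members are the 8 largest called falls, all called rises, the 4 highest, the 3 flattest, the stalk and the Mrps18 paralogs. From each further list the called gene with the smallest p in each direction is named, except for results that are not reported here. Others, the neighbouring genes and the pair of Mrpl49 and Fau were chosen after their values were seen. Depth was estimated, in genes with 1 transcript, from the most frequent product of a low FPKM and the transcript length. Alternatives changed the pseudocount, filter, scaling, block, trend and libraries.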

Additional observations from a re-analysis of the deposited data

How the results depend on the processing

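With 19 alternatives, 12 to 19 members were lower and 2 to 11 higher. Over all tested genes the same fits called 10.3% to 23.4% lower and 9.62% to 24.6% higher. A filter at 5 FPKM left 3308 calls of all genes, with fewer genes tested. After the length and GC correction, chosen after seeing the data, 11 members were higher and the member median was 0.02. This median was -0.11 without the 2 muscle-rich libraries and 0.01 with a muscle covariate, both also added later. The cause of these shifts was not tested. Leaving out each library in turn gave 3728 to 5476 calls over all genes, 2 to 5 higher and 12 to 16 lower members, and member medians of -0.12 to 0.01. The labels do not say whether replicate numbers pair the samples. Deviations of same-numbered libraries correlated at -0.10, 0.04 and -0.05, which with 3 libraries per group cannot decide it. With a replicate block 4596 genes, 3 higher and 15 lower members passed. In its lowest library a member rested on 29 (Mrpl23) to 534 (Mrpl43) estimated fragments, and how depth bears on the calls was not tested.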
